A study of Drosophila melanogaster with 2 samples.

Results

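Distal intronic peaks are Mes4-GFP binding peaks that lie inside genes but away from their starts. A peak of the authors' optimal list was counted here if its summit, the base of highest signal, lay over 1000 bp from every annotated transcription start site (TSS), inside a gene body and in no annotated exon. Of the 3207 optimal peaks, 814 met this rule, or 25.4% (95% Wilson interval 23.9 to 26.9). The others comprised 1721 peaks with a summit within 500 bp of a TSS, called TSS-near here, 307 distal intergenic peaks, 47 distal exonic peaks and 318 peaks at 500 to 1000 bp from a TSS.

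The chromatin came from whole Drosophila melanogaster embryos of 0 to 16 h, male and female together, of a transgenic line in which Mes4 carries green fluorescent protein (GFP) at its C terminus. It was sheared to fragments of 200 to 800 bp and immunoprecipitated with an antibody against GFP, and the DNA was sequenced. There was 1 group, with biological replicates 3 and 4, and both share a control that was not analysed here; no embryos without the tag were analysed here. A whole-embryo sample mixes all cell types and stages, so a peak in few cells and a weak peak in many cannot be told apart. In the RefSeq gene table the name Mes4 is an older name of PolE4, whose product is a histone-fold subunit of DNA polymerase epsilon, while Mes-4 with a hyphen is another gene. The optimal list holds exactly the strongest peaks of the list called on both replicates pooled. The lists hold no read counts, so the depth of each sample is unknown.

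Introns of fly genes, above all long ones near the start of a gene, hold many of the enhancers that steer transcription in the embryo. Promoters of the fly carry their own short sequences, among them the DNA replication-related element (DRE) and Motif 1, which are typical of housekeeping genes. A peak in ChIP-seq marks where fragments were recovered most often and does not say whether the tagged protein touches the DNA itself.

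The windows around the strongest distal intronic peaks are shown because they give the letters under the highest signals; none holds the DRE or Motif 1. The GC content of 201 bp around the summit was 40.8% in ush, 32.8% in CG11050, 51.2% in cno, 40.8% in CG32772, 37.8% in Tlk and 34.3% in NFAT, against a median of 36.3% over all members. The windows are centred on the summits of ush at chr2L:481024-481144, CG11050 at chr2L:6612665-6612785, cno at chr3R:5215472-5215592, CG32772 at chrX:4910320-4910440, Tlk at chrX:3742170-3742290 and NFAT at chrX:13640433-13640553, in dm6 on the plus strand, read from the RefSeq Release 6 genome. Capitals mark any of the 10 sequences of 8 bases (8-mers) that ranked highest at summits of the members, which occur in the Tlk and NFAT windows and not in the other 4.
ush: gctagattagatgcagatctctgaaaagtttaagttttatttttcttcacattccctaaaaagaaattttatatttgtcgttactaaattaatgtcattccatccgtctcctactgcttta
CG11050: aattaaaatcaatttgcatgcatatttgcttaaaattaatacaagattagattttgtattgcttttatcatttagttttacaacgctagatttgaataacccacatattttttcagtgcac
cno: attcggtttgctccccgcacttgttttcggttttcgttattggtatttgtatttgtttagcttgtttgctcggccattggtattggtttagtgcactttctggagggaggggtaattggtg
CG32772: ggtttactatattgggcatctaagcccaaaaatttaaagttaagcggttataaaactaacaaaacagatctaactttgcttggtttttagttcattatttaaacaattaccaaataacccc
Tlk: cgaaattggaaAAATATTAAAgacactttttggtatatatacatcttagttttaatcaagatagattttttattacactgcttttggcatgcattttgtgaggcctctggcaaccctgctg
NFAT: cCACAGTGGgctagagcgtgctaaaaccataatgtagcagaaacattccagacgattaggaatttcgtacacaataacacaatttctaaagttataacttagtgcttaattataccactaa

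Over the 407 odd-numbered distal intronic peaks, 8-mers on either strand were ranked by the difference in windows that held them between the summit (100 bp to each side) and its flanks, equally wide windows whose centres lie 500 bp away on the left and on the right. Of the first 10, CACTGAGA had the largest ratio of summits to flanks. It stood in 25 of the 407 even-numbered summit windows, which the ranking did not use, against 3 of their left and 1 of their right flanks. Over all 814 the numbers were 52 summits, or 6.39%, against 6 left and 3 right flanks. The same 8-mer was held by 2.14% of the weaker distal intronic peaks, 1.34% of the TSS-near peaks and 0.677% of all windows of 201 bp cut from intron sequence that the rule could have chosen, but by 11.4% of the distal intergenic peaks. It was thus not particular to introns. Its letters in reverse order, which have the same base composition, were found in 2 of the 814. After CACTGAGA, the next 4 letters held the run AAA in 43 of 53 matches, or 81.1% (68.6 to 89.4), and in 43.7% (41.2 to 46.2) of the 1517 matches in all windows of eligible intron; weaker distal intronic peaks had 70.0%. This was noticed in the data and then counted in them. The 8 sequences shown are matches from different hosts, in dm6 from the RefSeq Release 6 genome, with CACTGAGA in capitals. The matches are ImpL2 at chr3L:4228290-4228330, RhoGAP18B at chrX:19155263-19155303, Fas3 at chr2L:18325206-18325246, pnt at chr3R:23326396-23326436, CG43759 at chrX:19018177-19018217 and Snoo at chr2L:7964684-7964724 on the plus strand, and aop at chr2L:2163712-2163752 and CG6959 at chr3R:11849890-11849930 on the minus strand.
ImpL2: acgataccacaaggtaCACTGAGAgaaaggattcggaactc
aop: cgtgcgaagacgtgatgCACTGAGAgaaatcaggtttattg
CG6959: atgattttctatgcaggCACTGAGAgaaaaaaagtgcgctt
RhoGAP18B: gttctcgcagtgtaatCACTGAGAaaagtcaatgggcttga
Fas3: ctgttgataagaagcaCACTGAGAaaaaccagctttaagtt
pnt: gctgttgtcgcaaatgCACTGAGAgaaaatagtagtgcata
CG43759: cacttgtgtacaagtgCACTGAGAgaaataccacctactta
Snoo: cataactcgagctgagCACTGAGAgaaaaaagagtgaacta

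The other listed 8-mers fell into 2 kinds by their letters. TACACTGA, CACTGTGC and CACAGTGG share the letters CACTG or their reverse complement with the first. TACACTGA overlaps CACTGAGA by the letters CACTGA, and the matches of the pair are not independent. CACAGTGG, whose reverse complement is CCACTGTG, overlaps CACTGTGC by the letters CACTGTG, so the matches of that pair are not independent either. CACTGTGC was held by 50 distal intronic summits, or 6.14%, against 9 and 9 flanks, CACAGTGG by 51, or 6.27%, against 10 and 5, and TACACTGA by 38, or 4.67%, against 8 and 5. Of all windows of eligible intron, 0.792%, 0.813% and 0.614% held these 3. In TSS-near summits CACTGTGC, CACAGTGG and TACACTGA stood at 3.25%, 3.31% and 1.63%, and in distal intergenic ones at 4.56%, 3.91% and 6.19%. With their letters in reverse order, TACACTGA, CACTGTGC and CACAGTGG stood in 2, 1 and 0 of the 814 summits. The remaining 6, AAATATTA, AAATATTG, AATATTTA, ATATTAAA, ATATTTAC and AAAAAGTT, are made mostly of A and T. They stood in 63, 50, 75, 53, 42 and 44 summits. In reverse order they stood in 30, 13, 31, 28, 25 and 44. AAAAAGTT was thus held no more often than its reverse, which stood in 31 left and 23 right flanks. At least 1 of the 10 stood in 322 of the 814 summits, against 128 left and 122 right flanks. The counts over all 814 include the odd-numbered members that ranked the 8-mers. In the even-numbered members, each of the 10 stood in more summits than left or right flanks. CACTGTGC stood in 27 of these summits against 7 left and 5 right flanks. For CACAGTGG it was 28 against 6 and 1, and for TACACTGA 15 against 5 and 3. ATATTAAA stood in 22 against 18 and 19, and AAAAAGTT in 12 against 10 and 5. No p-value was computed for 8-mers.

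The DRE, TATCGATA, is shown for the 2 distal intronic peaks that hold it, since it is a promoter element and these are its only matches among the members. They are Rip11 at chrX:18645213-18645253, in a gene for a Rab11-binding protein, and lncRNA:CR44357 at chrX:7277218-7277258, in a long noncoding RNA gene; both are on the plus strand of dm6, from the RefSeq Release 6 genome, with the DRE in capitals.
Rip11: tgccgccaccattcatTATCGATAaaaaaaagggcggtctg
lncRNA:CR44357: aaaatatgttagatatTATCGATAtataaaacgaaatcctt

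The strongest distal intronic peak was the strongest of the whole optimal list. It lay in the first intron of ush, which encodes the Friend-of-GATA cofactor U-shaped, 1396 bp from the nearest TSS, that of the neighbour cbt. Its signal, the caller's own value for a peak, was 992 in replicate 3 and 688 in replicate 4, the highest of each replicate's list. The next, in CG11050 (rank 6 of 3207), had 760.0 and 472; it stood in an intron of 140 bp, 1038 bp from a TSS. The peak in cno, which encodes the junction protein Canoe, had rank 15 with 557 in replicate 3 and 369 in replicate 4.

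Those in CG32772 (rank 27; 463 and 323 in replicates 3 and 4), Tlk (rank 32; 450 and 287), which encodes the Tousled-like kinase, and NFAT (rank 46; 328 and 299), the fly's NFAT transcription factor, followed. Signal was higher in replicate 3 than in replicate 4 at each of these 6 peaks, and the replicates' scales are not comparable, so the ranks carry the agreement. The other 14 of the 20 strongest lay in Raf, a kinase of the Ras pathway, CG9837, CG32486, JIL-1, a histone H3 kinase, Gug, the Atrophin corepressor, for, a cGMP-dependent protein kinase, Trl, which encodes GAGA factor, lncRNA:CR44810, CG3726, ImpL2, a secreted binder of insulin-like peptides, schlank, a ceramide synthase, CG46321 together with CG12912 and Hr3, CG12769, and aos together with CG33158; aos encodes Argos, a secreted inhibitor of the EGF receptor. Their ranks in the optimal list ran from 56 to 136, and their ranks in replicates 3 and 4 from 58 to 209. All 20 had a peak among the top 3207 of each replicate.

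Of all 814, 594 (73.0%) had a peak among the top 3207 of each replicate, with summits within 200 bp counted as the same peak. Over all optimal peaks, this share was 72.8%. It was 71.8% for TSS-near and 73.3% for distal intergenic peaks, and neither difference passed (Fisher's exact test, two-sided, adjusted p = 0.940 for both). Another 115 were among the strongest of replicate 3 alone, 90 of replicate 4 alone, and 15 of neither, these all at the weak end (best rank 2849, in mamo). Every member but 1 had a peak in both relaxed lists, and over these 813 Spearman's rho of the replicates' signals was 0.698, a description across peaks that share libraries.

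**Figure D1:**
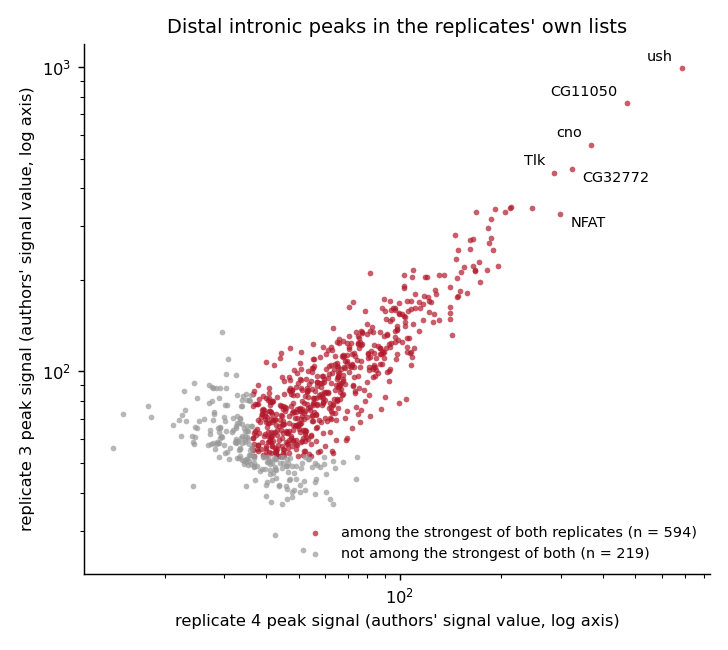
Each point is a distal intronic peak found in both replicates' relaxed lists (813), placed by its signal in replicate 4 (x axis, log scale) and replicate 3 (y axis, log scale). Red points, 594, have a peak among the top 3207 of each replicate and grey points do not; ush stands highest on both axes.

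Apart from a few very strong peaks, the distal intronic peaks were less often among the strongest than TSS-near peaks. Their median signal was 124 (85.5 to 1678), against 129.7 for TSS-near and 123 for distal intergenic peaks. Of the 801 strongest optimal peaks, 165 were distal intronic, which is 20.3% of the members against 27.3% of the TSS-near peaks, a difference of -6.98 points (Fisher's exact test, adjusted p = 0.000305). Against distal intergenic peaks (22.5%) the difference did not pass (exact test, adjusted p = 0.411). Among the 100 strongest, 13 were members.

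The median member lay 3496 bp from the nearest TSS, and the farthest 47192 bp. At the lower bound, the members nearest 1000 bp were in CG9747 (1001 bp), CR42490 (1002 bp) and drongo (1011 bp); the intronic summits just left out were in CG5065 (998 bp), in CG30156 and vimar (996 bp) and in Tob (995 bp). Of the members, 36.9% were over 5 kb and 14.0% over 10 kb from every TSS, against 43.0% and 19.7% of the 7489 weaker distal intronic peaks, a difference that was not tested. The weaker ones are the peaks of the pooled relaxed list that met the same rule and overlapped no optimal peak. In 72.6% of members the nearest TSS belonged to a host gene, so the rest, like the strongest peak of ush, were nearer to the start of some other gene than to any of their host's.

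First introns were over-represented among these peaks. Taking for each summit the host transcript of the longest span, 374 of 814 members (45.9%; 42.5 to 49.4) were in a first intron, against 40.0% (38.9 to 41.1) of the weaker peaks, a difference of 5.98 points (odds ratio 1.28, Fisher's exact test, two-sided, p = 0.00107, adjusted p = 0.00428 over the 16 intron groups compared). First introns held 27.5% of the 48.4 Mb of intron that the rule could have chosen, called eligible here. Per megabase of eligible sequence there were 28.1 members in first introns, 20.8 in the second and 7.53 in the third or a later one. The last of these held 20.3% of members, against 28.9% of weaker peaks and 45.3% of eligible sequence (exact test, adjusted p = 1.72e-06).

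Among members 1 to 2 kb from a TSS, 58.5% were in first introns, against 52.6% of weaker peaks at that distance; at 2 to 5 kb the shares were 48.8% and 44.3%, at 5 to 10 kb 39.2% and 34.1%, and over 10 kb 24.6% and 25.0%. These were not tested bin by bin. At the farthest distances, members and weaker peaks thus had nearly the same share.

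Length of the intron set the members less apart. The median intron with a member was 13521 bp long (62 to 132044), against 13402 bp for weaker peaks, and 62.9% of members were in introns over 10 kb, against 60.2% of weaker peaks (p = 0.151, Fisher's exact test) and 64.6% of eligible sequence. Introns under 1 kb held 12 members, or 1.47%, against 4.17% of weaker peaks (exact test, adjusted p = 0.000290), among them that of CG11050. Later introns of 10 kb or less held 17.9%, against 23.7% (exact test, adjusted p = 0.000880). Within their introns the summits were spread widely, with a median position at 46.0% of the intron's length (middle range 24.4 to 72.1) and a median of 2848 bp to the nearer splice site.

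**Figure D2:**
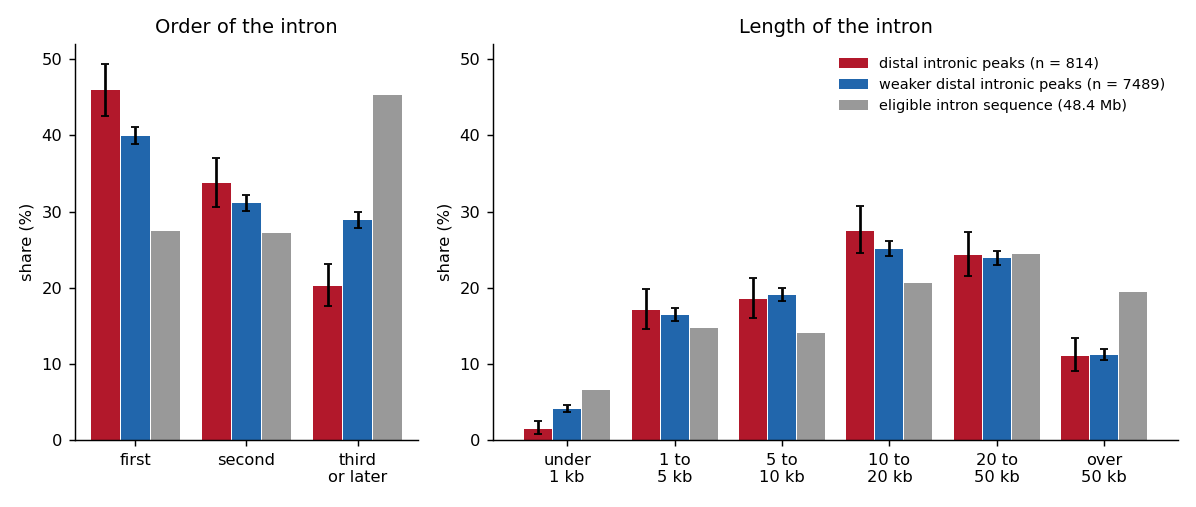
Bars give the share (%) of distal intronic peaks (red, n = 814), weaker distal intronic peaks (blue, n = 7489) and eligible intron sequence (grey, 48.4 Mb) by the order of the intron in its transcript and by its length; error bars are 95% Wilson intervals. Members exceed both other bars in first introns (45.9%) and fall under both in the third or a later one (20.3%).

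The 814 peaks lay in 536 host genes, 515 of them protein-coding; 57 members were inside more than 1 gene. With 7084 genes that have any eligible intron, 7.57% were hosts. The number per host was skewed: 358 genes held 1 member, 94 held 2, 50 held 3 and 34 held 4 or more. The 178 hosts with at least 2 held 479 members, or 58.8%. Neighbouring members of a host were a median of 5280 bp apart (199 to 197935), 47.9% of the 315 gaps were at most 5 kb, and in 12 the peaks overlapped.

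Several of the genes with the most members are known from development. kirre, which encodes an immunoglobulin-family receptor of myoblast fusion, and sbb, the corepressor Scribbler or Brakeless, held 9 each. ush, Raf, the nuclear receptor gene Hr4 and lncRNA:CR44357 held 8 each; Eip75B, an ecdysone-induced nuclear receptor gene, CG1677, shn, which encodes the Dpp pathway factor Schnurri, and jing, a zinc finger gene, held 6 each. CG1677 lies within lncRNA:CR44357 and its 6 are among the 8 of that gene, so the 10 genes held 68 different members.

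They were arranged differently. In Raf all 8 were in the second intron, from 1.05 to 23.1 kb after the gene's start, with a median signal of 252 and a best rank of 56 (345 in replicate 3 and 246 in replicate 4). In sbb all 9 were also in the second intron, over 51.3 kb, and in jing all 6 were in the first, over 95.1 kb, with a median signal of only 106 and 2 of 6 among the strongest of both replicates. In ush, 2 were in the first intron, 5 in the second and 1 in the third, and their signals ran from 88.9 to 1678. Those of kirre were spread over 310.5 kb of a gene of 394 kb, 6 of them in the fifth intron, and per eligible length it held 0.284 members per 10 kb, against 2.62 in Raf.

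**Figure D3:**
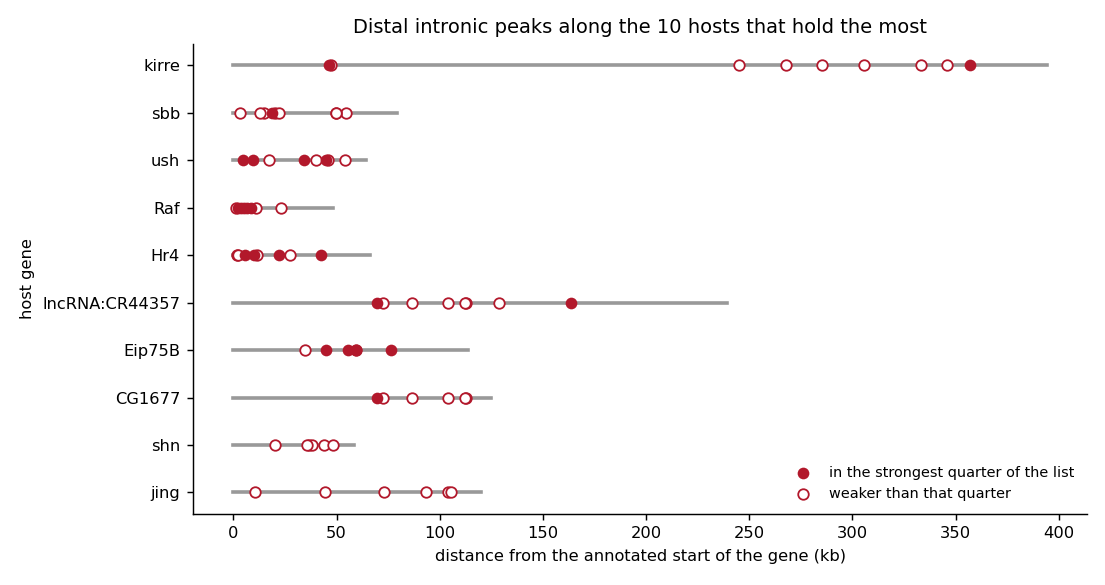
Each grey line is 1 of the 10 hosts with the most distal intronic peaks, drawn to scale from its annotated start (0 kb) to its end, and each circle is the summit of a member; filled circles are among the 801 strongest of the optimal list. The members of Raf lie within 23.1 kb of its start, and those of kirre reach 357 kb.

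How often a gene was a host followed how much eligible intron it had. Of genes with 1 kb or less of it, 0.253% were hosts; the shares were 6.89% for 1 to 5 kb, 16.1% for 5 to 10 kb, 22.7% for 10 to 20 kb, 30.3% for 20 to 50 kb and 42.3% for more. Members per megabase ran the other way from 1 kb upward, at 31.6, 29.9, 23.8, 17.8 and 9.99. The median host had 15.3 kb of eligible intron, against 0.639 kb for all 7084 genes.

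Hosts also had peaks at their own starts more often than other genes. An optimal summit stood within 500 bp of a start of the gene itself in 187 of 536 hosts, or 34.9% (31.0 to 39.0), against 17.4% (16.5 to 18.3) of the 6548 other genes with eligible intron and 18.7% of all 7084. The order held in each of the 6 length bins; with over 50 kb, 31 of 85 hosts had such a peak (36.5%), against 12 of 116 non-hosts (10.3%), and with 1 to 5 kb, 38 of 97 (39.2%), against 17.5%. These shares were not tested. Of the 10 genes with the most members, sbb, Eip75B, CG1677, shn and jing had 1 start peak each, and kirre, ush, Raf, Hr4 and lncRNA:CR44357 had 0.

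**Figure D4:**
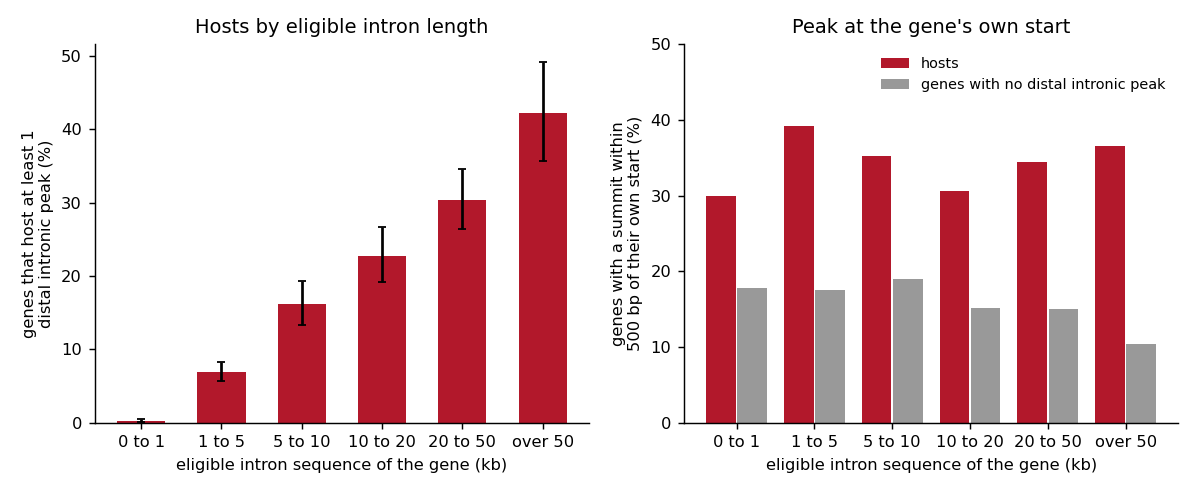
Left, the share (%) of genes that host at least 1 distal intronic peak, by the gene's eligible intron sequence in kb, with 95% Wilson intervals. Right, the share (%) of hosts (red) and of genes with no distal intronic peak (grey) that have an optimal summit within 500 bp of their own start; hosts are higher in all 6 bins.

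Host genes were then counted by function, with lists chosen when earlier results of these data were known, and set beside the 7.57% of all genes with eligible intron and the 29.3% (338 of 1155) of genes with over 10 kb of it. Of the nuclear receptor and ecdysone response genes, 11 of 25 were hosts, and 10 of the 17 with over 10 kb (58.8%). Their strongest members were at ImpL2 (rank 119; 265 in replicate 3 and 184 in replicate 4), at Hr3 (rank 128; 271 and 165), whose intron is shared with CG46321 and CG12912, and at Hr4 (rank 139; 223 and 195); EcR, the ecdysone receptor gene, and ftz-f1 were also hosts. Of signalling receptors, ligands and modulators, 29 of 83 were hosts, and 25 of the 39 long ones (64.1%). aos came first (rank 136; 282 and 146), with a peak that also lies inside CG33158, then fz, the Frizzled receptor of Wnt and planar polarity signalling (rank 202; 213 and 152), and N, the Notch receptor (rank 231; 208 and 135). Both shares of long genes were above the 29.3%.

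Regulators of transcription were counted by family. The GATA factors and cofactors were few: 3 of 8 were hosts, and 3 of 3 long ones, ush with 8 members, and Bx and grn with 1 weak one each (ranks 1857 and 1907). Of BTB and zinc finger regulators 11 of 40 were hosts, 8 of 18 long ones (44.4%), led by Trl (rank 96; 334 and 168), rib (rank 279) and ken (rank 314). Of the bHLH, forkhead, T-box, Sox, Runt and Ets genes it was 10 of 56, and 8 of 21 long ones (38.1%), led by aop, the Ets repressor Yan (rank 174; 234 and 147), CHES-1-like with 5 members (best rank 388) and sim (rank 480). Homeodomain genes, many of which have long introns, were hosts in 7 of 61 cases and in 6 of 31 long ones (19.4%), led by zfh1 (rank 407), Lim1 (rank 868) and ct (rank 907). Chromatin and Polycomb group genes gave 11 of 50, and 4 of 8 long ones, led by Tlk, gpp, which encodes the histone H3 methyltransferase Grappa (rank 251; 177 and 149), and Mi-2, a chromatin remodeller (rank 423).

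In the structural and neural lists the strongest peak was that of cno. Cytoskeleton and small GTPase regulators were hosts in 14 of 69 cases, and 13 of 33 long ones (39.4%), with RhoGAP18B (rank 341) and mbc (rank 507) after cno. Adhesion and axon guidance genes were hosts in 17 of 75 cases, and 17 of 53 long ones (32.1%), led by kirre (rank 173; 216 and 167), Fas3 (rank 558) and caps (rank 863). RNA-binding and splicing regulators gave 10 of 40, and 9 of 20 long ones (45.0%), led by Rbfox1 (rank 368), shep (rank 570) and pum (rank 645). For ion channel and synapse genes it was 13 of 80, and 10 of 51 long ones (19.6%), led by Irk1 (rank 256), Piezo (rank 873) and Nmdar1 (rank 1009). None of the 6 ribosomal protein genes and 20 cuticle protein genes with eligible intron was a host; none of either list had over 10 kb of it. The peaks ranked here for zfh1, Mi-2, pum, Irk1 and Nmdar1 each lie inside another gene as well. No list was tested.

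The X chromosome held more of these peaks than any other arm. On X were 210 of 814 members (25.8%; 22.9 to 28.9), against 19.3% of weaker distal intronic peaks, a difference of 6.48 points (odds ratio 1.45, Fisher's exact test, p = 2.07e-05, adjusted p = 0.000124 over 6 arms), and X has 19.3% of the eligible sequence. The comparison of arms was chosen after these counts were seen. Of the other optimal peaks, 15.4% of TSS-near and 8.47% of distal intergenic ones were on X. Per megabase of eligible sequence there were 22.4 members on X, against 16.8 over all arms. No member was on chromosome 4, where 39 weaker peaks met the rule (exact test, adjusted p = 0.0583), and 3L held 17.9%, against 21.5% (adjusted p = 0.0562).

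Of the X genes with eligible intron, 10.8% were hosts (131 of 1214), against 6.90% of the autosomal ones (405 of 5870). Of the 18 hosts with at least 5 members 8 were on X (44.4%; 24.6 to 66.3), among them kirre, Raf, Hr4, Tlk and CHES-1-like. Of all hosts 24.4% were on X, and of all genes with eligible intron 17.1%. The 8 count both CG1677 and lncRNA:CR44357, though all members of CG1677 are also members of lncRNA:CR44357. Of X members 38.6% (32.2 to 45.3) were in first introns, and of autosomal ones 48.5% (44.5 to 52.5), a difference that was not tested. Among the strongest of both replicates were 74.8% of X members. The strongest member of X was that of CG32772; those of 2L, 2R, 3L and 3R were in ush, lncRNA:CR44810, CG32486 and cno.

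Near the tagged gene itself, 3 members lay within 20 kb, all in the first intron of babos (ranks 189, 1113 and 1383), on the arm of the tagged gene. How far the position beside the tagged gene bears on them was not tested.

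The 21 motifs were searched on both strands in windows of 201 bp. Since the rule keeps members away from TSSs, differences from TSS-near peaks in promoter sequences come with the choice of members, and each is given beside the share of eligible intron windows. The DRE stood in 2 of 814 members (0.246%), against 141 of 1721 TSS-near peaks (8.19%), an odds ratio of 0.0276 (Fisher's exact test, adjusted p = 3.68e-20 over all motifs and classes); it is found in 5.45% of windows at all annotated TSSs and 0.447% of eligible intron windows. Motif 1 stood in 0 members, which allows a share of up to 0.369%, against 49 TSS-near peaks, or 2.85% (exact test, adjusted p = 1.48e-07), 2.73% of all TSS windows and 0.0294% of intron windows. The E-box CAGCTG was also less frequent (7.13%, against 13.9% of TSS-near peaks, exact test, adjusted p = 5.31e-06; 12.3% of TSS windows and 7.09% of intron windows). All intron windows thus stood below all TSS windows for each of these 3 motifs, as the members did against TSS-near peaks, and nothing is read from these 3 differences about the members. Other motifs that differed from TSS-near peaks, among them some that were higher in members, are given below.

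Against windows 500 bp to each side, 2 of the 21 motifs passed (9.52%; exact McNemar test, the larger p of both sides, adjusted over 21), both at higher share. The motif of GATA factors (the letters GATAA preceded by either A or T) stood in 33.2% of summits, against 24.1% of flanks (exact test, adjusted p = 0.00242), and the same letters in reverse order, searched as a control of base composition, in 30.7%, against 20.9% (adjusted p = 0.00128). The excess of the control, 9.77 points, was as large as that of GATA, 9.09 points. All windows of eligible intron held them at 22.8% and 22.5%. GC content was lower at the summits of the members (median 36.3%) than in their flanks (41.0%) and than at weaker summits (41.8%); its part in the motif counts was not tested. Without replicate 3, that is in the members of replicate 4's own strongest 3207 peaks, neither passed (exact test, adjusted p = 0.132 for both). Over all alternatives run the adjusted p of these exact tests ran from 0.000318 to 0.925 for GATA and from 1.09e-05 to 0.766 for the control.

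Weaker distal intronic peaks held GATA in 22.9% of summits (exact test, adjusted p = 9.15e-09 against the 33.2% of members) and the control in 21.7%. Members also exceeded the weaker peaks in forkhead (with the letters TGTTTAC; 8.97%, against 5.54%, exact test, adjusted p = 0.00145), the TATA box (with the letters TATAAA; 28.3%, against 21.3%, adjusted p = 8.33e-05) and CATATG (10.1%, against 7.25%, adjusted p = 0.0245). For forkhead, the 8.97% of members also exceeded the 3.91% of distal intergenic peaks (exact test, adjusted p = 0.0218); 4.20% of intron windows and 5.86% of TSS windows held it. Against the 7.26% of TSS-near peaks with forkhead the difference did not pass (exact test, adjusted p = 0.322). The members' own flanks held forkhead at 5.04%, the TATA box at 22.9% and CATATG at 6.70%. None of these 3 differences between summits and flanks passed (exact McNemar test, adjusted p = 0.158 for each). The TATA box stood in 29.3% of TSS-near peaks (adjusted p = 0.849, exact test) and 28.3% of distal intergenic ones (adjusted p = 1). Members were above TSS-near peaks in GATA (24.9% of those, exact test, adjusted p = 0.000163) and the control (25.3%, adjusted p = 0.0245). CATATG stood in 5.58% of TSS-near peaks (exact test, adjusted p = 0.000461). All TSS windows held GATA, the control and CATATG at 22.3%, 21.4% and 4.27%, and intron windows held CATATG at 6.11%. Members were lower in CACGTG, at 1.47%, against 3.49% (exact test, adjusted p = 0.0245). CCAAT, the box bound by NF-Y, whose C subunit has a histone fold like that of PolE4, stood in 32.9% of summits, against 33.0% of flanks and 34.9% of intron windows. Its 268 summits lay between the 282 left and 256 right flanks, so by the rule used no difference could pass. The intron windows were not tested. The GAGA factor's motif, searched as GAGAGAG, stood in 3.81%, against 6.51% of flanks (exact test, adjusted p = 0.158), and that of Zelda, searched as CAGGTAG, in 1.35%, against 1.29%.

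**Figure D5:**
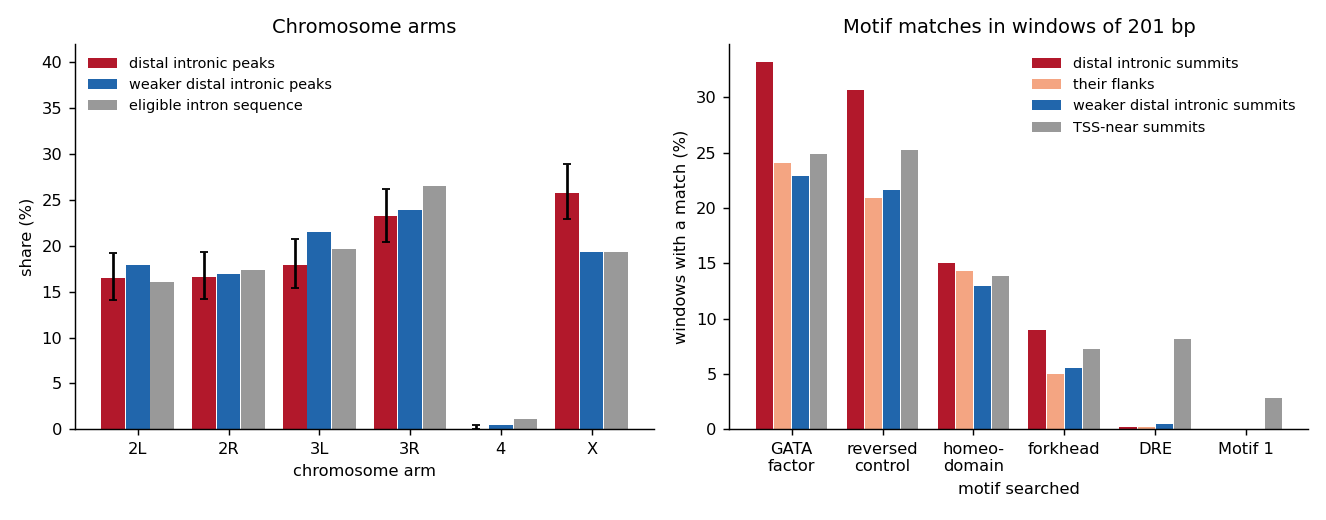
Left, the share (%) of distal intronic peaks (red, with 95% Wilson intervals), weaker distal intronic peaks (blue) and eligible intron sequence (grey) on each chromosome arm; X holds 25.8% of members. Right, the share (%) of windows of 201 bp with a match at distal intronic summits (red), their flanks (light red), weaker distal intronic summits (blue) and TSS-near summits (grey). The DRE stands in 8.19% of TSS-near summits and 0.246% of members, and in 0.447% of all eligible intron windows (not drawn). The rule keeps members away from TSSs, so that contrast comes with their choice.

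Few summits lay in annotated transposable elements: 2 of 814 (0.246%) were inside an insertion, against 0.374% of the weaker peaks. The share of eligible intron sequence inside insertions is not given here, so nothing is read from this low count.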

How the data were processed

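The authors deposited narrowPeak lists, and all values here come from those on dm6; those on dm3 were not used. Per the deposited readme files, each replicate's relaxed list was made from its alignments and the shared control, a pooled one from both, and the optimal list by an irreproducible discovery rate (IDR) procedure; for the aligner, peak caller, versions and IDR threshold, no entry is given in the sources used here. The deposited signal value of each peak, of unstated scale, ranked the peaks. The deposited −log10 q-value was not used for ranking. The deposited summit offset gave the summit.

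The members and lists were chosen with earlier results of these data known. Genes, exons and TSSs came from Ensembl release 115 without transposable elements, and sequence from RefSeq Release 6; arm names and lengths matched the files. TSS-near means within 500 bp. Coordinates are 1-based. The host intron is that of the longest transcript that holds the summit in an intron. In counts of hosts, a summit in several genes counts for each. In results on introns it counts once, for the gene whose intron there is the shortest. A replicate's peak within 200 bp matched, and it could match more than 1 member. List names were matched by symbol or older name, and 9 did not match. Genes named are the hosts of the 20 strongest members, the 10 hosts with the most, the strongest of each arm, the 3 strongest hosts of each list, the 3 members and 3 other peaks nearest 1000 bp, and hosts of shown sequences; EcR and ftz-f1, mamo and babos were picked once their values were known.

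Fisher's exact tests, two-sided, compared shares, and exact McNemar tests compared summits with flanks. A motif whose count at summits was neither above both flanks nor below both could not pass. P-values were adjusted by Benjamini-Hochberg within each family, threshold 0.05. Wilson intervals (95%) cover the counting of peaks only. p-values over peaks treat peaks as independent, though neighbours share a host, and do not measure spread between replicates. The 8-mer search, the comparison of arms, the X alternatives and the DRE and Motif 1 alternatives were chosen after seeing the data. Steps were tested on simulated data. Python 3.11.15, numpy 2.4.6, pandas 2.3.3, scipy 1.17.1 and matplotlib 3.10.9 were used.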

Additional observations from a re-analysis of the deposited data

How the results depend on the processing

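The share of optimal peaks that met the rule moved with the distance it sets, to 32.0% at 500 bp and 18.2% at 2000 bp. P-values of alternatives for introns and arms were not adjusted. The excess in first introns ran from 4.68 points at 2000 bp (unadjusted exact p = 0.0275, the highest) to 8.88, and that on X from 4.39 points without replicate 4 (unadjusted exact p = 0.00433) to 7.75 without replicate 3; its highest was 0.00497, at 2000 bp. Introns over 10 kb had an unadjusted p under 0.05 only at 2000 bp (5.20 points, p = 0.0118, Fisher's exact test). The count of motifs past the threshold against flanks, 2 of 21, was the least stable value: it was 7 at 500 bp, 5 with windows of 50 bp to each side, 1 with windows of 200 bp to each side, 0 in the stronger 1603 peaks, and between 0 and 2 with 1 replicate left out. Motif 1 against TSS-near peaks gave -1.02 points in the stronger 1603 peaks (p = 0.0643, exact test), against -2.85 points over all optimal peaks. The DRE gave -7.02 points in the same stronger peaks. The cause of these changes was not tested. No difference that passed changed sign. Some that did not pass did: the share among the strongest of both replicates, minus that of TSS-near peaks, was -0.257 points with summits within 500 bp, against 1.15, and summits minus flanks for the DRE without replicate 4 and for CCAAT in 2 settings changed sign too. CACTGAGA stood in 48 of 803 members without replicate 3 and 51 of 787 without replicate 4. No paired analysis was possible because both replicates belong to 1 group. Depth is unknown and limits how far a missing peak can be read.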

Other observations

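Several introns held more than 1 member. Each summit was counted here once, for the host whose intron at that place is the shortest. So counted, the 814 summits lay in 576 introns, and 54 of these held at least 3. After those of sbb, Raf, kirre and jing, 8 introns held 5 each: the second of Tlk, Hr4, CG1677, ush and shn, the third of Eip75B, and the first of CHES-1-like and Pvf3, a gene for a PDGF- and VEGF-like ligand. All 6 members of CG1677 lie in its second intron, but that of rank 1468 also lies inside Atg5 and was counted there. The intron of CHES-1-like is 18998 bp long and that of Tlk 60007 bp. These genes were chosen after their values were seen.

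In the 52 members with CACTGAGA, the match nearest the summit stood at a median of 56.5 bp from it, and in 22 of them within 50 bp. Of the members on X 9 held it, or 4.29%, against 7.12% of those on autosomes. For CACTGTGC the shares were 9.05% on X and 5.13% on autosomes.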
